A study of Mus musculus with 6 samples.

Results

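The Hox genes were followed in RNA of satellite cells, which are muscle stem cells, from mice, as a record of positional identity in cultured cells. Members were the genes of the deposited expression table whose symbol is Hox, a cluster letter from a to d and a paralog number. This rule found 36 of the 27366 features of the table, with 11 genes of the HoxA cluster on chromosome 6, 9 of HoxB on chromosome 11, 9 of HoxC on chromosome 15 and 7 of HoxD on chromosome 2. All 36 had the coordinates of the GENCODE annotation of GRCm38, in which 39 genes bear such names, and Hoxb1, Hoxd11 and Hoxd12 were not analysed here. The study set 3 libraries labelled Islr knockout against 3 labelled control, all from satellite cells of skeletal muscle at day 4 in medium for growth that held serum and basic FGF. Islr codes for a secreted leucine-rich repeat protein. The design text states that cells were sorted on whether they had Islr, and the labels name neither the muscles, the age and sex of the mice, the allele, nor whether separate animals or cultures gave the 3 libraries of each group. P-values therefore measure the spread between these libraries, which may be technical.

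Islr did not follow the labels: it stood at 256.7, 7.381 and 10.88 scaled reads in knockout-labelled libraries 1, 2 and 3, against 181.1, 12.82 and 1579 in control-labelled libraries 1, 2 and 3. Groups are therefore named by their labels. The sources used here do not give the deleted stretch, so reads of the whole gene do not check the knockout. Between 16456917 and 20531276 reads fell on genes in each library, of which 4495 to 5684 came from the 36 Hox genes. Myogenic genes were present in all 6 libraries, with the satellite cell gene Pax7 at 1319 to 1667 scaled reads in knockout-labelled libraries and 1233 to 2729 in control-labelled ones. Myod1, a myogenic determination factor, ran from 18890 to 24540 in knockout-labelled libraries and from 24220 to 33820 in control-labelled ones. Genes of myogenic differentiation differed far more between libraries. Myog, which drives differentiation, stood at 37230, 1998 and 5737 in knockout-labelled libraries and 43370, 417.2 and 43260 in control-labelled ones. Mymk, a factor of myoblast fusion, stood at 14820, 715.9 and 2402 in knockout-labelled libraries and 15590, 298.3 and 10910 in control-labelled ones. The libraries labelled knockout 1, control 1 and control 3 were thus the high ones for both, and the groups overlapped.

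Hox genes encode transcription factors that bind DNA through a homeodomain and give cells their address along the body axis and the limb. Within a cluster the order on the chromosome follows the order of use, so that genes of low paralog number act towards the head and genes of high number act towards the tail and the end of the limb. Adult satellite cells of limb and trunk muscles keep Hox transcription that recalls the embryonic origin of the muscle, whereas those of head muscles have little of it. Genes of the same paralog number in different clusters descend from one ancestral gene and have similar homeoboxes, the stretch that encodes the homeodomain. The paralogs of number 10 are shown because Hoxa10 and Hoxc10 were among the 3 Hox genes of the highest mean level here and Hoxd10 was close to 0. Their homeoboxes span 180 bases in exon 2 of 2 on GRCm38, at chr6:52232554-52232733 on the minus strand for Hoxa10, chr15:102970848-102971027 on the plus strand for Hoxc10 and chr2:74694141-74694320 on the plus strand for Hoxd10. Capitals mark the 50 positions at which the aligned letters of these transcripts in GENCODE are not all the same.
Hoxa10: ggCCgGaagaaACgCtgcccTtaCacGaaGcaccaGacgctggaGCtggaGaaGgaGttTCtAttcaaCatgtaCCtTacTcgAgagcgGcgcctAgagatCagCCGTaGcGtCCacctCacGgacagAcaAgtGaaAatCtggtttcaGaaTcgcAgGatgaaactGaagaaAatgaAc
Hoxc10: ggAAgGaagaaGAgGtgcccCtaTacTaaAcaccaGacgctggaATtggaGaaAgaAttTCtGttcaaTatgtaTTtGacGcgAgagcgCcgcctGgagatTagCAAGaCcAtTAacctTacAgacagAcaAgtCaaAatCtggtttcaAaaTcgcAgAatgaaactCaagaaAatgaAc
Hoxd10: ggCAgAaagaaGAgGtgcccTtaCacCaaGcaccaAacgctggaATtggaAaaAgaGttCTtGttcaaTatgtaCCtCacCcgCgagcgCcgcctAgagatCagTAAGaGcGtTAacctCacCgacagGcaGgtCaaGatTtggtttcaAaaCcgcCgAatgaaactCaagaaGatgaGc
Of the 180 bases, 80.6% were the same in Hoxa10 and Hoxc10, 78.9% in Hoxa10 and Hoxd10, and 82.8% in Hoxc10 and Hoxd10. The longest run of bases shared by any transcripts of these genes was 17, 14 and 16 for the same pairs.

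The cells carried a Hox profile of posterior HoxA and HoxC genes, with HoxB low and HoxD limited to a pair of neighbours. Levels between genes are compared on the FPKM scale, the authors' reads per kilobase of the longest transcript and scaled to library depth. On this scale HoxC genes made up 51.7% to 60.8% of the summed Hox level in a library, HoxA 32.2% to 45.8%, HoxD 2.07% to 6.94% and HoxB 0.48% to 3.43%. Genes of paralog numbers 9 to 13 held 63.6% to 73.8% of the sum, those of 5 to 8 held 20.8% to 28.9% and those of 1 to 4 held 5.42% to 7.61%. In every library, 14 members were above 1 FPKM: Hoxa5, Hoxa6, Hoxa7, Hoxa9, Hoxa10 and Hoxa11, then Hoxc4, Hoxc6, Hoxc8, Hoxc9, Hoxc10, Hoxc11 and Hoxc13, and Hoxd8. Another 14 were below 1 FPKM in every library, among them 8 of the 9 HoxB genes. The exception in HoxB was Hoxb4, at 0.2368, 0.6863 and 1.956 FPKM in knockout-labelled libraries and 0.463, 0.3252 and 0.987 FPKM in control-labelled ones. The 3 genes of the highest mean FPKM, Hoxc10, Hoxc11 and Hoxa10, gave 38.4% to 45.4% of the summed FPKM in knockout-labelled libraries and 37.3% to 46.0% in control-labelled ones. In the libraries labelled knockout 3 and control 3, Hoxc6 stood above Hoxa10.

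**Figure D1:**
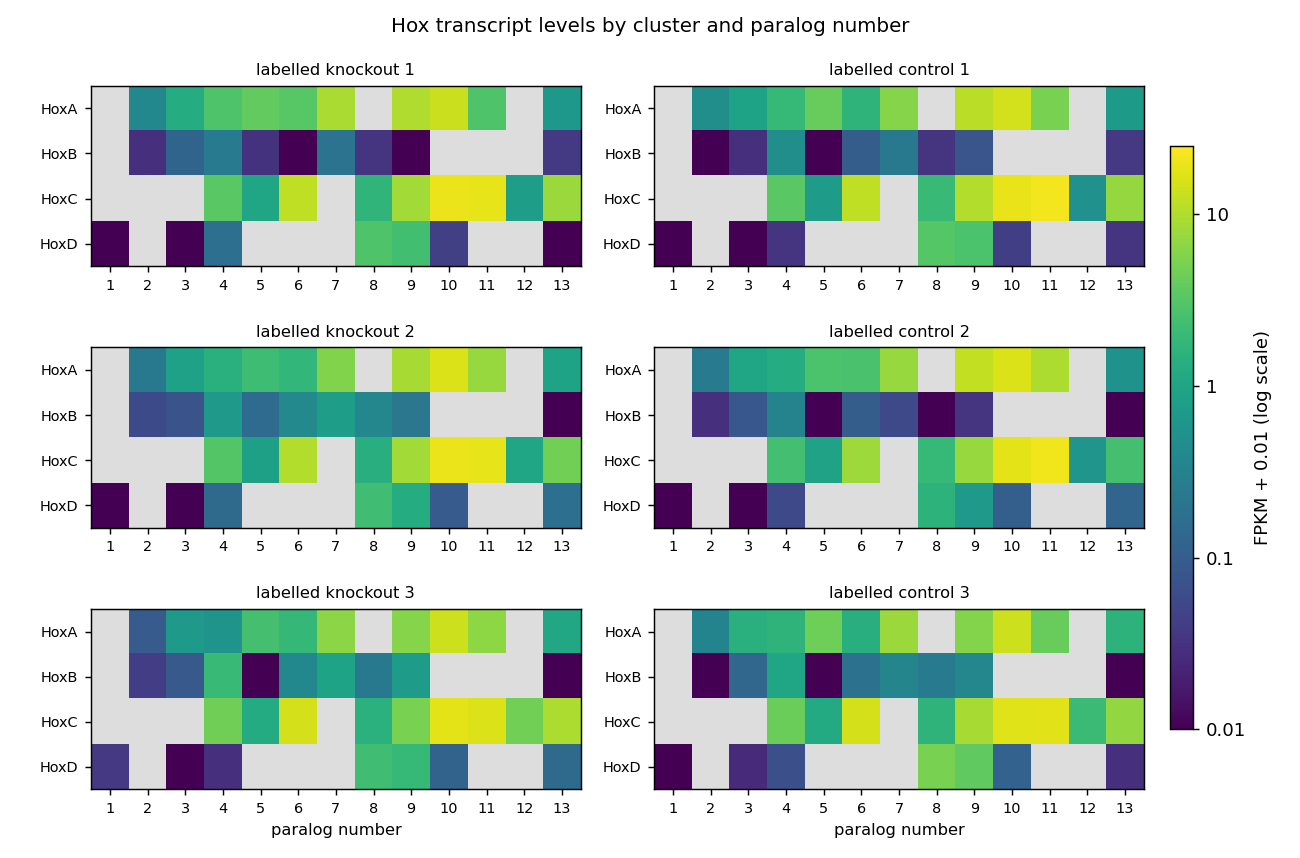
Each panel is 1 library, with the libraries labelled knockout on the left and those labelled control on the right. Rows are the 4 clusters, columns the paralog number, and colour the FPKM + 0.01 on a log scale (grey: no value shown); Hoxc10 and Hoxc11 are the 2 brightest cells in all 6 libraries, and Hoxb4 is the only HoxB gene that passes 1 FPKM, in knockout 3.

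No Hox gene passed the test of knockout against control. The test was limma on log2(scaled reads + 1), where scaled reads are gene counts divided by a size factor for each library, and a gene entered with a mean of at least 1. Fold changes on this scale understate changes of low genes. Of the 36 members, 33 were tested and 0 passed an adjusted p of 0.05, with an adjusted p of 1.0 for each; over all 20344 features tested, the share that passed was 0%. Likewise 0 members had an unadjusted p under 0.05, where the share of all features was 1.36%, and the groups overlapped in all 33, where they did not overlap in 4.76% of all features. On the recovered reads, edgeR, which tested 25 of the members, and DESeq2 also called 0. In the fit with replicate number as a block, 0 of the 33 had an unadjusted p under 0.05, against 4.59% of all features. The smallest was 0.0892 for Hoxb7 (limma adjusted p = 0.9204). The block made the SE smaller for every tested member, at 0.249 in place of 0.454 for Hoxc13 and 0.448 in place of 0.803 for Hoxc12. SEs and intervals given for single genes come from the fit without the block. The authors' deposited table lists no Hox gene with a p-value under 0.05, the smallest being 0.128 for Hoxb7 with an adjusted value of 0.9998.

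The log2 fold changes, knockout over control, lay above 0 for 17 members and below 0 for 16. Their median was 0.053, beside a median of 0.028 for all features tested. In all 3 pairs of libraries with the same number, 5 members were higher in the library labelled knockout, where 12.2% of all features were, and 7 were lower, where 12.1% of all features were. The 5 were Hoxb2, Hoxc4, Hoxc10, Hoxc12 and Hoxc13, and among the 7 were Hoxa5, Hoxa9, Hoxa10, Hoxc8 and Hoxc11. These are 15.2% and 21.2% of the 33 tested members.

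**Figure D2:**
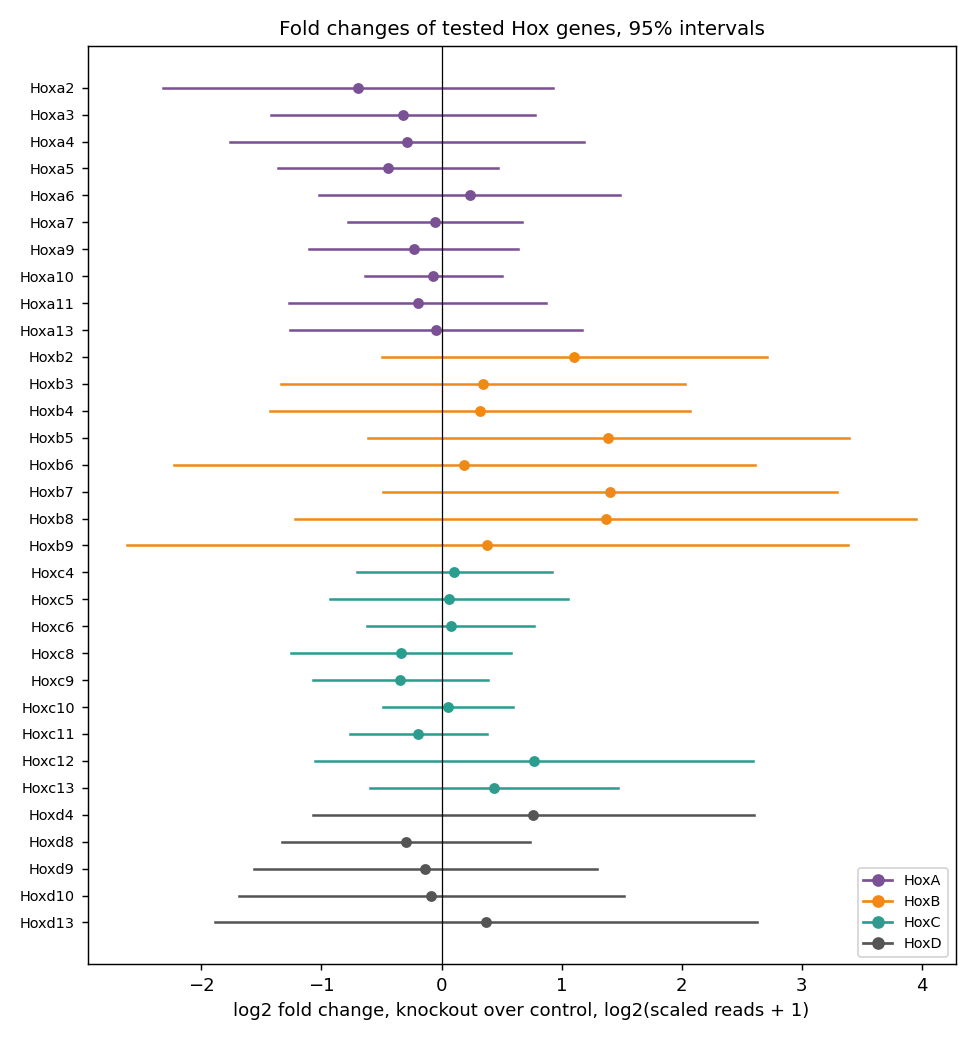
Log2 fold changes of tested Hox genes, knockout over control, on log2(scaled reads + 1), with 95% intervals from limma without the replicate block. Points are coloured by cluster; every interval shown crosses 0, and the widest is that of Hoxb9, from -2.62 to 3.383.

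The leading genes of the profile, Hoxc10, Hoxc11 and Hoxa10, are posterior patterning factors of the lumbosacral region and the limb. Hoxc10 (ENSMUSG00000022484) lies at chr15:102966796-102971893 and stood at 713.0, 694.7 and 579.2 scaled reads in knockout-labelled libraries 1, 2 and 3, against 682.2, 668.9 and 562.5 in control-labelled libraries 1, 2 and 3. It was the steadiest member, since its highest library was 1.267 times its lowest on value + 1. Its log2 fold change was 0.053 ± 0.240 (SE), with a 95% interval from -0.491 to 0.598. Hoxc11 (ENSMUSG00000001656), its neighbour at chr15:102954427-102957708, stood at 716.5, 703.0 and 558.3 scaled reads in knockout-labelled libraries, against 815.5, 827.4 and 623.0 in control-labelled ones. All 3 numbers had less in the library labelled knockout, yet knockout 1 and 2 lay above control 3, and the log2 fold change was -0.193 ± 0.251 (SE). Hoxa10 (ENSMUSG00000000938), at chr6:52231197-52240854, stood at 652.6, 787.0 and 595.1 scaled reads in knockout-labelled libraries and 693.3, 834.4 and 611.9 in control-labelled ones. The groups overlapped, and the log2 fold change was -0.071 ± 0.252 (SE), with a 95% interval from -0.641 to 0.5. Over these 3 genes the 95% intervals of the log2 fold change ran from -0.764 to 0.598.

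On the FPKM scale the order of the leading genes differed with the label. Hoxc10 had the highest FPKM of all Hox genes in each library labelled knockout, and Hoxc11 had it in each library labelled control. The ratio of Hoxc10 to Hoxc11 FPKM was 1.05, 1.05 and 1.1 in knockout-labelled libraries and 0.885, 0.856 and 0.956 in control-labelled ones. In reads, Hoxc10 was below Hoxc11 in knockout 1 and 2, at 625 against 628 and 753 against 762. It was above Hoxc11 in knockout 3, at 692 against 667, and below it in each library labelled control. The order in knockout 1 and 2 thus rests on the lengths used, 1909 bases for Hoxc10 and 2021 for Hoxc11. This pair was singled out after its values were seen, so the ratio is a description without a test. How many other pairs of genes separate by label was not counted. Across the libraries Hoxc11 averaged 19.06 FPKM and Hoxc10 averaged 18.60, and their ranges of 16.4 to 21.57 and 16.84 to 19.89 FPKM overlapped. Hoxa10 averaged 14.80 FPKM, with a range of 13.55 to 16.73. Its level was below that of Hoxc10 in each of the 6 libraries, at 0.681 to 0.929 times the Hoxc10 FPKM.

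**Figure D3:**
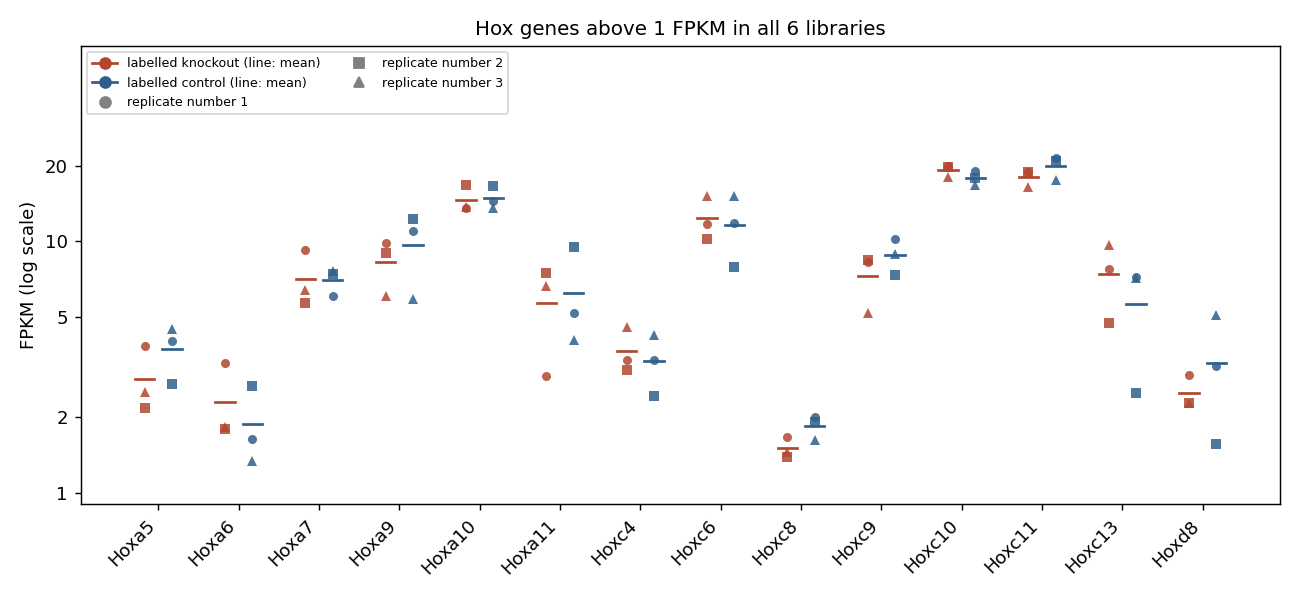
FPKM on a log scale for the 14 Hox genes above 1 FPKM in all 6 libraries, with libraries labelled knockout on the left of each gene and those labelled control on the right. Points are libraries, shapes their replicate number and lines the group means; the groups overlap for each of the 14.

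The other high posterior genes were the paralogs of number 9, Hoxa11 and Hoxc13. Hoxa9, a posterior factor best known for its part in blood stem cells and leukaemia, stood at 599.0, 529.6 and 330.6 scaled reads in knockout-labelled libraries and 661.0, 771.5 and 334.1 in control-labelled ones. Hoxc9 stood at 370.8, 366.3 and 207.6 in knockout-labelled libraries and 454.4, 342.6 and 371.6 in control-labelled ones. Neither differed by label beyond the spread, with log2 fold changes of -0.233 ± 0.383 (SE) for Hoxa9 and -0.345 ± 0.321 (SE) for Hoxc9. Per length these paralogs were close, with mean levels of 9.005 FPKM for Hoxa9 and 8.081 FPKM for Hoxc9, while Hoxd9 averaged 2.088 FPKM and Hoxb9 0.2302 FPKM.

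Hoxa11, which patterns the middle segment of the limb, stood at 125.5, 312.8 and 256.9 scaled reads in knockout-labelled libraries and 221.1, 423.0 and 162.8 in control-labelled ones. Number 2 was the highest in either group, and knockout 1 was the lowest of all 6. Its log2 fold change was -0.197 ± 0.471 (SE), and its mean level was 5.958 FPKM, against 19.06 FPKM for its paralog Hoxc11. Hoxc13, known for its role in hair and nails, stood at 359.4, 213.1 and 400.9 scaled reads in knockout-labelled libraries and 333.3, 120.0 and 306.8 in control-labelled ones. Number 2 was the lowest in either group here. Each library labelled knockout exceeded its same-numbered control library, but the groups overlapped and the log2 fold change of 0.439 ± 0.454 (SE) did not pass (limma adjusted p = 1.0). Hoxa13, which patterns the hand and foot, was low, at 0.5475 to 1.586 FPKM over the 6 libraries, and Hoxd13 reached at most 0.1621 FPKM.

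Among the central genes, Hoxc6 and Hoxa7, which pattern the thorax, were the highest. Hoxc6 stood at 349.1, 297.1 and 405.1 scaled reads in knockout-labelled libraries and 350.0, 243.6 and 418.5 in control-labelled ones. Its values rank the numbers alike in either group, with number 3 on top and number 2 at the bottom. Hoxc4, from the anterior end of the same cluster, did the same, at 134.6, 119.9 and 163.2 in knockout-labelled libraries and 133.3, 100.2 and 157.7 in control-labelled ones. Log2 fold changes were 0.078 ± 0.307 (SE) for Hoxc6 and 0.107 ± 0.357 (SE) for Hoxc4. Hoxc5, also on HoxC, stood at 53.62, 45.21 and 59.42 in knockout-labelled libraries and 40, 51.27 and 61.36 in control-labelled ones. Its annotated transcripts begin inside Hoxc10 and share exon sequence with it on the same strand, so reads there cannot be assigned with certainty. Hoxc8, a factor of the lower thorax, stood at 69.59, 56.28 and 54.4 in knockout-labelled libraries and 83.32, 82.74 and 63.07 in control-labelled ones. It was lower on the knockout side of all 3 pairs, but knockout 1 exceeded control 3, and the log2 fold change of -0.338 ± 0.403 (SE) did not pass.

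Hoxa7 stood at 352.5, 212.2 and 219.3 scaled reads in knockout-labelled libraries and 231.1, 293.7 and 271.0 in control-labelled ones. Knockout 1 was the highest of the 6 and knockout 2 the lowest, so the label does not order them. Its log2 fold change was -0.055 ± 0.318 (SE). Hoxa5, which patterns the neck and lung, stood at 134.6, 74.73 and 79.51 in knockout-labelled libraries and 141.1, 99.05 and 146.6 in control-labelled ones. All 3 pairs were lower in the library labelled knockout, the groups overlapped, and the log2 fold change was -0.448 ± 0.403 (SE). Hoxa2 to Hoxa4 and Hoxa6 ranged from 0.08398 FPKM for Hoxa2 in the library labelled knockout 3 to 3.268 FPKM for Hoxa6 in the library labelled knockout 1.

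The HoxD cluster showed a step between neighbours. Hoxd8 stood at 144.9, 109.8 and 101.3 scaled reads in knockout-labelled libraries and 157.8, 80.41 and 235.2 in control-labelled ones. Hoxd9 stood at 92.41, 49.82 and 68.63 in knockout-labelled libraries and 108.9, 27.97 and 136.4 in control-labelled ones. For either gene control 3 was the highest library and control 2 the lowest, and the log2 fold changes were -0.295 ± 0.455 (SE) for Hoxd8 and -0.135 ± 0.630 (SE) for Hoxd9. The 3 highest libraries for either gene, control 3, control 1 and knockout 1, were also the 3 highest for Myog. The share of all features with these 3 highest libraries was not counted, and the part of differentiation in these values was not tested. The next gene on the posterior side, Hoxd10, had 1, 3 and 4 reads in knockout-labelled libraries and 1, 3 and 4 in control-labelled ones. Mean levels were 2.088 FPKM for Hoxd9 and 0.07742 FPKM for Hoxd10, a ratio of 27. On the anterior side Hoxd4 had 7, 7 and 1 reads in knockout-labelled libraries and 1, 2 and 3 in control-labelled ones. Hoxd3 had a single read, in the library labelled control 3, and Hoxd1 a single read, in the library labelled knockout 3.

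The start regions on either side of this step are shown from RefSeq on GRCm38.p6, from 250 bases before to 50 bases after the start, on the plus strand at chr2:74697513-74697812 for Hoxd9 and chr2:74691641-74691940 for Hoxd10. Capitals mark a match on either strand to the TATA box motif TATAAA, to the motif CCAAT bound by NF-Y, or to TGATNNAT, a site of Hox proteins with their Pbx partners.
Hoxd9: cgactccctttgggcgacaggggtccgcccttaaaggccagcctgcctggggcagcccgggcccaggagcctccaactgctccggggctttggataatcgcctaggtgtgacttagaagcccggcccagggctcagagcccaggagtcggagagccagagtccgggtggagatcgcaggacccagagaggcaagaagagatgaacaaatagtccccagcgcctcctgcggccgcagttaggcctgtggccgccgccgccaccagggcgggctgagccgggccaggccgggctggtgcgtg
Hoxd10: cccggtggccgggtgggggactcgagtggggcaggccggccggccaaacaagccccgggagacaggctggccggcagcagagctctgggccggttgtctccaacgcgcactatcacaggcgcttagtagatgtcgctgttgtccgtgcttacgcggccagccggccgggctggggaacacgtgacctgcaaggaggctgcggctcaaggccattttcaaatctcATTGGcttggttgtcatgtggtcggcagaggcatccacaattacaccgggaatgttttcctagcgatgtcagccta
Hoxd9 had no match to the 3 motifs in this window, and Hoxd10 had 1 match to CCAAT, read on the minus strand. Over all 32851 start regions of this length, 13.6% held TATAAA, 37.4% held CCAAT and 8.85% held TGATNNAT. The dinucleotide CG occurred 20 times for Hoxd9 and 22 times for Hoxd10, beside a median of 7 over all regions, so these letters were alike on the expressed and on the near-silent side. RefSeq regions were matched for 19 of the 36 members, with 20 entries since Hoxa10 has more than 1 start, and Hoxc10 and Hoxc11 were not among them.

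The HoxB genes, which pattern the hindbrain, neck and trunk, lay at few reads, and Hoxb6 to Hoxb9 had the 4 widest spans between libraries of all members. Summed over the cluster they gave 24, 115 and 196 reads, or 27.4, 106.1 and 164.0 scaled reads, in knockout-labelled libraries 1, 2 and 3. Those labelled control 1, 2 and 3 gave 34, 24 and 108 reads, or 37.8, 28.0 and 92.0 scaled reads. Knockout 2 and 3 and control 3 were thus high and the other 3 libraries low. All 8 tested HoxB genes had a log2 fold change above 0, with a median of 0.743, and none passed the test. The median over the genes within each pair was -0.108, 2.043 and 0.906 for numbers 1, 2 and 3. Leaving out both libraries of number 2 in the blocked fit moved the median to -0.024 with 3 of 6 genes above 0. With a pseudocount of 0.1 in place of 1, 6 of the 8 were above 0.

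Hoxb7 had the smallest p of all members. It had 4, 20 and 24 reads in knockout-labelled libraries, or 4.563, 18.45 and 20.09 scaled reads, against 5, 1 and 9 reads, or 5.555, 1.165 and 7.671 scaled reads, in control-labelled ones. Knockout 1 lay below control 1 and control 3. The log2 fold change was 1.404 ± 0.834 (SE), with a 95% interval from -0.488 to 3.297 and an unadjusted p of 0.127 (limma adjusted p = 1.0). It was 2.026 without the library labelled knockout 1 and 0.804 without control 2, and in the blocked fit 2.225 without number 1 and 0.523 without number 2. Hoxb5 came next, with 1, 8 and 0 reads in knockout-labelled libraries and 0 in each of those labelled control. Against a floor of 3 reads over the control group, the observed sum of scaled reads is at least 2.72-fold higher in the group labelled knockout. This bound makes no allowance for counting error in the knockout reads, and 8 of the 9 came from the library labelled knockout 2. The 95% interval of its log2 fold change on value + 1 ran from -0.616 to 3.393. With Hoxb5 set at this bound the median over HoxB stayed at 0.743 and that over all members at 0.053. Hoxb2 had 1, 3 and 2 reads in knockout-labelled libraries and 0, 1 and 0 in control-labelled ones.

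The members with the largest span between libraries were Hoxb9, Hoxb8 and Hoxb6. Hoxb9 had 0, 10.15 and 30.97 scaled reads in knockout-labelled libraries and 3.333, 1.165 and 16.19 in control-labelled ones. Hoxb8 had 1.141, 17.53 and 10.04 in knockout-labelled libraries and 1.111, 0 and 11.08 in control-labelled ones. Hoxb6 had 0, 13.84 and 12.55 in knockout-labelled libraries and 3.333, 3.496 and 5.966 in control-labelled ones. In each of them knockout 1 was low and knockout 2 and 3 were high, and the log2 fold changes were 0.381 ± 1.318, 1.368 ± 1.139 and 0.189 ± 1.067 (SE) in the order given. Hoxb9 shares a run of 50 identical bases with Hoxc9, a CT repeat outside the homeobox, and a run of 40 with Hoxd9. Hoxc9 stood at 207.6 to 454.4 scaled reads. The part of shared sequence in the Hoxb9 values was not tested. A span of at least 4-fold on value + 1 was found for 12 of the 33 tested members, or 36.4%, beside 39.6% of all features.

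Some markers of other cells were high in the same libraries as HoxB, and others were not. Of the fibro-adipogenic and fibroblast list, 8 of 12 genes had knockout 2, knockout 3 and control 3 as their 3 highest libraries. So had 5 of 10 macrophage and blood genes, 3 of 6 adipocyte genes, 3 of 10 endothelial genes and 2 of 10 Schwann genes. The counts were 1 of 10 for pericytes and smooth muscle, 1 of 11 for tenocytes and cartilage and 0 of 12 for myogenic genes. For the limb and axial regulators described below, the count was 8 of 21. The share of all features was 11.9%. The summed fibroblast list stood at 3572, 5846 and 9726 scaled reads in knockout-labelled libraries and 4465, 1525 and 8344 in control-labelled ones. Its gene Pdgfra, a receptor of fibro-adipogenic cells singled out after its values were seen, stood at 83.28, 296.1 and 417.6 in knockout-labelled libraries and 91.1, 85.07 and 165.3 in control-labelled ones. Other genes of the list had another order: Lum, a matrix protein, was lowest in control 3 and Dpt, another one, was highest in control 1. The summed macrophage list stood at 154.0, 704.9 and 1175 in knockout-labelled libraries and 291.1, 256.4 and 432.1 in control-labelled ones. The summed endothelial list stood at 357.1, 1732 and 1450 in knockout-labelled libraries and 366.6, 764.5 and 526.7 in control-labelled ones, so that control 2 exceeded control 3, unlike in HoxB. The summed Schwann list was highest in knockout 1, where HoxB was lowest, at 3197, 2045 and 2115 in knockout-labelled libraries and 2436, 902 and 1560 in control-labelled ones. No gene of these lists or of the tenocyte, pericyte and adipocyte lists passed the test, and no gene of the fibroblast, endothelial or macrophage lists was at 0 in all libraries. The fibroblast factor Tcf21 had a single read in all, and the blood marker Ptprc had none in 4 of the 6 libraries. The part of these cells in the HoxB values was not tested. In bulk RNA, a different number of cells of a type and a different amount of RNA in each cell cannot be told apart.

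**Figure D4:**
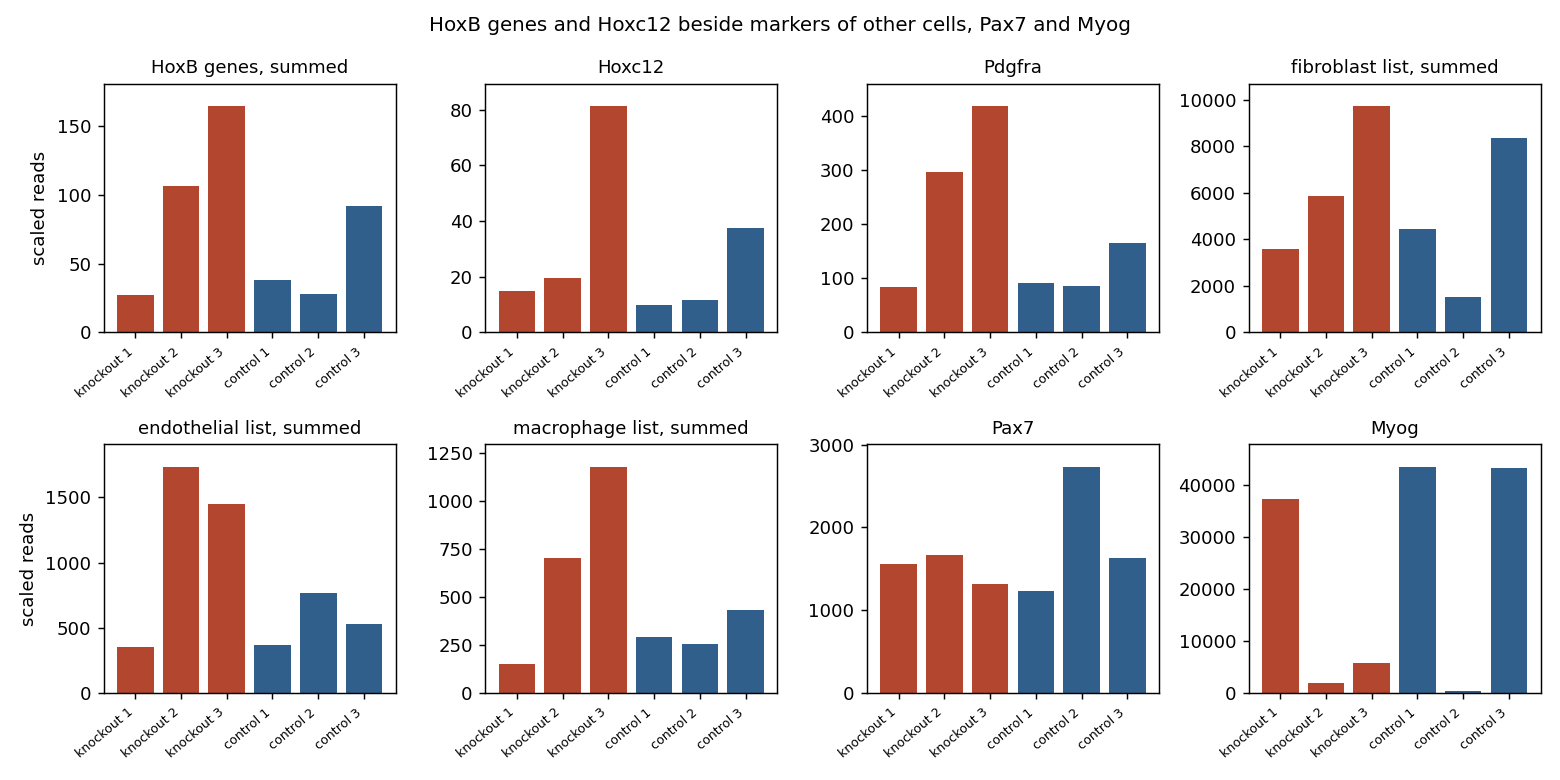
Scaled reads by library for the summed HoxB genes, Hoxc12, Pdgfra, the summed fibroblast, endothelial and macrophage lists, Pax7 and Myog, with libraries labelled knockout in red on the left and those labelled control in blue on the right. HoxB, Pdgfra and the fibroblast and macrophage lists have knockout 2, knockout 3 and control 3 as their highest libraries, the endothelial list has control 2 above control 3, Hoxc12 is high in both libraries of number 3, and Myog is high in knockout 1, control 1 and control 3.

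Hoxc12 had the widest span between libraries of the HoxC genes, with its highest library 7.472 times its lowest on value + 1. It had 14.83, 19.37 and 81.19 scaled reads in knockout-labelled libraries and 9.999, 11.65 and 37.5 in control-labelled ones. The libraries of number 3 were the high ones in either group, as for Hoxc4, Hoxc5 and Hoxc6 and for 15.8% of all features. Each library labelled knockout exceeded its same-numbered control library, as for Hoxc4, Hoxc10 and Hoxc13 in the same cluster. The log2 fold change was 0.769 ± 0.803 (SE) and did not pass (limma adjusted p = 1.0). Lpl, a lipase on the adipocyte list, was also high at number 3, at 657.1, 429.0 and 3267 scaled reads in knockout-labelled libraries and 592.2, 409.0 and 2493 in control-labelled ones. It made up most of the list's sum there, which was 927.5, 925.4 and 3848 in knockout-labelled libraries and 929.9, 667.7 and 2890 in control-labelled ones. Pparg, the adipocyte regulator, was lowest at number 3, at 170.0, 176.2 and 76.16 in knockout-labelled libraries and 168.9, 142.2 and 86.93 in control-labelled ones. The defining adipocyte gene Adipoq was at 0 in 5 of the 6 libraries. The part of these genes' source cells in the Hoxc12 values was not tested.

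HoxA leaned the other way from HoxB, within error. Its log2 fold changes were below 0 for 10 of 11 genes, with a median of -0.233. The median over the genes of a pair was -0.067, -0.402 and -0.307 for numbers 1, 2 and 3. None of the 11 passed, and without the library labelled knockout 3 or without the library labelled control 2 there were 5 of 11 above 0; with library size scaling there were 2. HoxC was split, with 6 of 9 above 0 and a median of 0.063.

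Several members were high or low in both libraries of a replicate number, about as often as other features. In 19 of the 33, the 2 libraries of 1 number lay together above or below the other 4, a share of 57.6% beside 60.3% of all features. Number 2 was high for Hoxa10 and Hoxa11 and low for Hoxc4, Hoxc6, Hoxc13 and Hoxd9. Number 3 was high for Hoxa13, Hoxb4, Hoxb9, Hoxc4, Hoxc5, Hoxc6 and Hoxc12 and low for Hoxa9, Hoxa10, Hoxc10 and Hoxc11. Number 1 was high for Hoxa2 and Hoxa4 and low for Hoxb6 and Hoxd10. The sources used here do not give what a number marks.

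The genes that act with Hox proteins or set limb position were then read in the same fit. The Hox cofactors, the Pbx, Meis and Pknox homeodomain proteins that bind DNA beside Hox factors, had 0 of 9 called in either direction and a median log2 fold change of -0.114. Pknox1 stood at 664.0, 496.3 and 401.7 scaled reads in knockout-labelled libraries and 664.4, 794.8 and 632.4 in control-labelled ones. Pknox2 stood at 1504, 846.0 and 559.1 in knockout-labelled libraries and 1259, 1132 and 1335 in control-labelled ones. The libraries labelled knockout 2 and 3 were the low ones for both Pknox genes, and the groups overlapped. Limb and axial regulators had 0 of 21 called, with a median of 0.212. Tbx4, a T-box factor of the embryonic hindlimb, stood at 298.9, 137.5 and 297.1 scaled reads in knockout-labelled libraries and 295.5, 101.4 and 222.4 in control-labelled ones. Its forelimb counterpart Tbx5 had 1.141, 3.69 and 2.511 in knockout-labelled libraries and 0, 0 and 5.114 in control-labelled ones. Tbx4 thus exceeded Tbx5 in all 6 libraries, at 1.645 to 5.595 FPKM against at most 0.07413 FPKM. Pitx1, a homeobox gene of the hindlimb, had 10.27, 62.74 and 39.34 scaled reads in knockout-labelled libraries and 6.666, 9.323 and 30.68 in control-labelled ones.

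Within the limb list the smallest p went to Tbx3 and Tbx2, related T-box repressors. Tbx3 stood at 319.4, 368.1 and 488.0 scaled reads in knockout-labelled libraries and 295.5, 166.6 and 325.6 in control-labelled ones, with an unadjusted p of 0.113 (limma adjusted p = 1.0). Tbx2 stood at 172.3, 166.1 and 87.04 in knockout-labelled libraries and 216.6, 192.3 and 182.4 in control-labelled ones. The groups did not overlap for Tbx2, as in 4.76% of all features, and its log2 fold change of -0.533 ± 0.375 (SE) did not pass.

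Genes of the retinoic acid pathway, an upstream signal for Hox transcription, had 0 of 17 called and a median of 0.183. Aldh1a2, the enzyme that makes retinoic acid in the embryo, stood at 187.1, 250 and 255.3 scaled reads in knockout-labelled libraries and 167.8, 38.46 and 78.41 in control-labelled ones. Its groups did not overlap, as in 4.76% of all features. Its log2 fold change of 1.505 ± 0.528 (SE) had an unadjusted p of 0.0194 (limma adjusted p = 1.0). The share of all features with an unadjusted p under 0.05 was 1.36%. In the blocked fit without number 1, in which 93 features passed in all, it passed with a log2 fold change of 2.18 (limma adjusted p = 0.04829). With any other number or library left out it did not pass. Its log2 fold change then ran down to 0.923 in the blocked fit without number 2 and 0.988 without the library labelled control 2. Cyp26b1, which breaks retinoic acid down, stood at 105.0, 414.2 and 350.7 in knockout-labelled libraries and 88.88, 219.1 and 78.41 in control-labelled ones. It was higher in the library labelled knockout in all 3 pairs, and the groups overlapped. Cdx1, Cdx2 and Cdx4, activators of posterior Hox genes in the embryo, were not analysed here.

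Polycomb proteins keep Hox genes silent outside their domains and Trithorax proteins keep them active. Of the Polycomb genes 0 of 30 were called, with a median of -0.063, and of the Trithorax and H3K27 demethylase genes 0 of 19, with a median of 0.077. The smallest p in each was for Rbbp7, at 5175, 7603 and 5963 scaled reads in knockout-labelled libraries and 6567, 8834 and 7684 in control-labelled ones, and for Asxl3, at 13.69, 23.99 and 19.25 in knockout-labelled libraries and 4.444, 16.31 and 7.671 in control-labelled ones. Either gene overlapped between the groups. The next smallest p was for the Polycomb gene Pcgf1, at 80.35 to 107.0 in knockout-labelled libraries and 102.5 to 151.7 in control-labelled ones. In the Trithorax list it was for Kmt2e, at 818.3 to 1611 in knockout-labelled libraries and 584.7 to 1201 in control-labelled ones. Other homeobox genes of limb and trunk had 0 of 22 called and a median of -0.015. Irx5 had the smallest p among them, at 146.0, 68.27 and 47.71 in knockout-labelled libraries and 187.8, 83.9 and 161.9 in control-labelled ones. Msx2, a homeobox gene of the limb bud, followed at 11.41, 28.6 and 43.52 in knockout-labelled libraries and 6.666, 12.82 and 19.6 in control-labelled ones, higher in all 3 pairs with overlapping groups.

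Noncoding RNAs of the Hox clusters had 0 of 7 called and a median of -0.338. Hotair, transcribed antisense from within HoxC between Hoxc11 and Hoxc12, stood at 41.07, 21.22 and 33.48 scaled reads in knockout-labelled libraries and 47.77, 39.62 and 59.66 in control-labelled ones. It was lower on the knockout side of all 3 pairs, with a log2 fold change of -0.633 ± 0.491 (SE) that did not pass. Hoxb3os, an antisense RNA of HoxB, had at most 5.827 scaled reads in any library. An annotated gene on the opposite strand overlaps exons of 10 Hox members, and one on the same strand overlaps exons of 8. The sources used here do not give whether counting used strand, so reads in these overlaps cannot be assigned with certainty; for Hoxa11 the opposite gene, Hoxa11os, held 10.27 to 26.78 scaled reads in knockout-labelled libraries and 18.89 to 27.97 in control-labelled ones.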

How the data were processed

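RNA sequencing gave 6 libraries of mouse satellite cells at day 4, grouped by their titles into 3 labelled Islr knockout and 3 labelled control. The authors deposited a signal value per gene and library, which is a read count divided by a size factor for the library, and FPKM values, per the file headers. The deposited table also gives a log2 fold change with its p-value, raw and adjusted, from the authors' own comparison. A deposited table of raw counts holds 1031 features, none a Hox gene, and served to check the reads recovered from the signal: 100.0% of values were whole within 0.01 and all 480 shared features matched. Tools in the submitters' processing notes are edgeR 3.18.1, DESeq2 1.16.1, HTSeq, Trimmomatic and HISAT2 2.0.5. The sources used here do not give the handling of strand or the annotation counted. FPKM used the longest transcript of each of the 36 members. Of the table, 36 damaged lines were dropped, and 6 further columns with values per sample stayed unused. The column used for control 1 has a name with 2 digits exchanged against its label; the other 5 equal theirs.

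The test was limma 3.58.1 (trend and robust options, R 4.3.3) on log2(scaled reads + 1) over 20344 features averaging at least 1, two-sided and without a block, with Benjamini-Hochberg adjustment and a threshold of 0.05. Alternatives were a replicate block, other pseudocounts, filters and scalings, edgeR 4.0.16, DESeq2 1.42.0 and leaving out libraries. The steps were also run on simulated counts, in which only genes with a mean of at least 50 were changed. Those counts had no effect of the replicate number, so they do not show which changes could be found in these libraries. Same-numbered libraries deviated together from their group means, with correlations of 0.689, 0.633 and 0.625 over the 14280 genes averaging at least 10, so the numbers were taken to pair the libraries; this rests on the data, as the labels do not say what a number marks. The members and gene lists were chosen with earlier results of these data known. By rule, values were given by library for members with a mean of at least 50 scaled reads, the 3 with the smallest p and the 3 with the largest span. The rule also took the 2 genes with the smallest p of each positional list. Among the genes added outside this rule were Hoxc12, Hoxb4, Hoxd4, Hoxd10, Myog, Mymk, Lpl and Pparg. Counts carry counting error, which is large for members with few reads. Transcript letters came from GENCODE and start regions from RefSeq. Values of 1 member are not reported here; it stays in the counts and sums.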

Additional observations from a re-analysis of the deposited data

How the results depend on the processing

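No Hox gene passed in any of the 20 alternatives, including the fits with a replicate block. The count stayed at 0 when any library or number was left out. The smallest adjusted p of a Hox gene over all of them was 0.4449. Not every member could pass in each: edgeR tested 25 members, or 27 with the block. Of the members followed by name over the fits, DESeq2 with the block gave no adjusted p for Hoxb2 and Hoxb5 to Hoxb9. Other members, some with a lower mean than Hoxb9, were not listed for that fit. The number of all features passing was 0 in limma and 13 in DESeq2 with the block, and it ran from 0 to 93 when a library or a number was left out, the 93 coming without number 1. The other positional lists had 0 to 1 passing gene in those fits, the 1 being Aldh1a2. The replicate block changed no other call. The median log2 fold change of the Hox genes, 0.053 in limma, was -0.071 with a pseudocount of 0.1, -0.071 with a mean of at least 10, -0.064 in edgeR and -0.062 in edgeR with the block, and ran from -0.12 to 0.118 when a library or a number was left out; fewer members entered under the higher filter and in edgeR, and otherwise the cause was not tested. Of 737 values of named genes, 695 kept their direction and side of the threshold and 41 changed direction. With a pseudocount of 0.1 the log2 fold change was -0.384 for Hoxb9 and -0.695 for Hoxb6, and with 0.5 it was -0.027 for Hoxb6. When a library or a number was left out, values ran from -0.386 to 0.151 for Hoxa7, -0.598 to 0.023 for Hoxa9, -0.183 to 0.048 for Hoxa10, -0.623 to 0.193 for Hoxa11, -0.069 to 0.255 for Hoxc4, -0.112 to 0.207 for Hoxc5, -0.138 to 0.251 for Hoxc6, -0.034 to 0.147 for Hoxc10, -0.03 to 0.715 for Hoxc13, -0.712 to 0.161 for Hoxd8 and -0.829 to 0.293 for Hoxd9. They ran from -0.705 to 1.794 for Hoxb9, -0.055 to 2.386 for Hoxb8, -0.577 to 1.465 for Hoxb6 and -0.154 to 0.66 for Tbx4. Depth limits the HoxB, Hoxd4, Hoxd10 and Hoxd13 values most, since single libraries hold few reads of them, and a change of these genes smaller than their intervals was not detectable.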
